A study of Mus musculus with 5 samples.

Results

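Circular RNAs (circRNAs) of host genes that carry only a RIKEN clone name (ending in Rik) or a predicted-gene number (Gm followed by digits) were examined in mouse testis after exposure to triptolide. Every row of the deposited circRNA table was taken whose host symbol ends with Rik or is Gm with digits alone, whatever its level. This gave 489 of 11957 circRNAs (4.09%), from 206 host genes: 312 circRNAs of 123 Rik hosts and 177 of 83 Gm hosts. A further 32 circRNAs that list a Rik or Gm name beside another gene were not included. Male mice of strain C57BL/6J (C57/BL6J in the sample labels), aged 10 weeks, were gavaged daily with triptolide (50 µg per kg) or with saline as the control. Testes were taken at 35 days, with 6 mice per group. Triptolide is a diterpenoid of the thunder god vine that blocks transcription and harms the male germ line. The data are 2 control and 3 triptolide libraries of total RNA depleted of ribosomal RNA. Whether a library holds 1 animal or several pooled is not stated, so the p-values below reflect the spread from library to library, which may be technical.

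A circRNA forms when the splicing machinery joins the end of an exon to the start of the same or an upstream exon, which leaves a closed ring without free ends. Such rings resist exonucleases and can outlast the linear transcript of the same gene. Testis is known for transcribing many genes that are silent or nearly silent in other organs, and many of these were first catalogued as RIKEN clones or computed gene models, without a described function. Male germ cells hold a large share of the RNA in the organ, and the chromatin of a spermatid closes before the sperm is complete.

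Levels are in SRPBM, which by its name scales back-splice junction reads to the mapped reads of the library. One junction read was worth 8.29 to 9.57 SRPBM, so that 32804 to 44318 junction reads stood behind each library. The smallest value listed above 0 was 2 reads. The sources used here do not define a 0, which is therefore described as listed at 0, with no fold change against it. Libraries are given in the order control 1, control 2, triptolide A, triptolide B and triptolide C. The letters replace replicate numbers, since the 3 triptolide columns share 1 header. Of 22 germ cell marker genes, 14 had a circRNA, Crem, Ddx4 and Sycp1 among them. Of 35 markers of Sertoli, Leydig, immune, endothelial, smooth muscle, epididymal and red blood cells, 2 had one, Lhcgr and Adgre1. Summed circRNA levels of the germ cell markers were 7863 and 7780 SRPBM in control and 5726, 7630 and 5623 SRPBM in triptolide libraries. In such tissue samples, fewer cells of a type and less RNA per cell cannot be told apart.

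One library stood apart. Among circRNAs with at least 50 SRPBM in the other 4 libraries, control 1 listed at 0 4 of 32 Rik and Gm circRNAs (12.5%) and 115 of 689 other circRNAs (16.69%). No Rik or Gm circRNA met that condition in control 2 or in triptolide A, B or C, where 0.88% to 1.66% of the other circRNAs did. Over all levels, 9 of the 69 Rik and Gm circRNAs above 0 in the other 4 libraries (13.04%) were listed at 0 in control 1 alone. Of the other circRNAs, 374 of 1718 (21.77%) were. The Rik and Gm count was also 9 of 69 for triptolide A, where 178 of 1522 other circRNAs (11.7%) met the condition. It was 3 of 63, 3 of 63 and 2 of 62 for control 2, triptolide B and triptolide C. In triptolide A these 9 were of low level, with a mean over the other libraries of at most 77.8 SRPBM, against 2272 SRPBM in control 1. Fold changes of the circRNAs at 0 in control 1 alone are given below with and without that library.

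**Figure D1:**
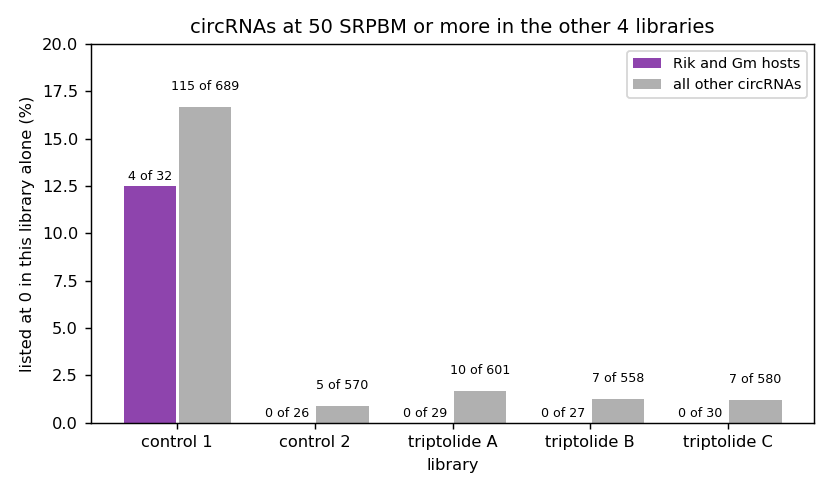
Percentage of circRNAs listed at 0 in 1 library among those with at least 50 SRPBM in the other 4 libraries, for Rik and Gm hosts (purple bars) and all other hosts (grey bars), with the counts above each bar. Control 1 reaches 12.5% and 16.69%, and no other library exceeds 1.66%.

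RefSeq gives 102 of the 206 hosts as protein coding (331 circRNAs), 79 as long non-coding genes (128 circRNAs) and 9 as pseudogenes (11 circRNAs). The remaining 16 hosts (19 circRNAs) were not matched to the RefSeq table, 1 of them a label that joins 2 Rik names. Of the hosts, 143 were matched by symbol and 47 through a synonym, and 44 now carry a current symbol that is neither Rik nor Gm. Of 470 circRNAs with a RefSeq host, 430 (91.5%) lay wholly inside it. Another coding gene wholly contained 31 circRNAs, so that their host assignment is uncertain. Among these were Gm21992 circRNAs inside Rbm4, which codes for an RNA-binding splicing regulator, and Gm28062 circRNAs inside Hnrnpu, which codes for a nuclear RNA-binding protein. Others were Gm17135 circRNAs inside Pms2, a mismatch repair gene.

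Some renamed hosts belong to the sperm tail or to meiosis. Gm7068 and Gm16432 are now Catspere1 and Catspere2, named for the CatSper calcium channel of the sperm flagellum, with 13 and 5 circRNAs. Gm7173, 1700003M02Rik and 1700101E01Rik are now Cfap47, Cfap206 and Cfap77, named as cilia and flagella associated proteins, with 4, 3 and 1 circRNAs. 1700123I01Rik, now Majin, anchors telomeres to the nuclear membrane in meiosis and had 1 circRNA, above 0 in triptolide C alone (17 SRPBM). Among hosts still listed under the old name, 4930447C04Rik codes for the synaptonemal complex protein SIX6OS1 and had 6 circRNAs. Summed per library, Catspere1 circRNAs had 331 and 195 SRPBM in control and 95, 324 and 215 SRPBM in triptolide libraries, which overlapped.

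Levels were uneven. The most abundant one made up 10.1% of the summed SRPBM of the 489, the top 4 made up 33.2% and the top 10 made up 49.5%. Those 4 ranked 12, 14, 17 and 18 among all 11957 circRNAs of the table. At the other end, 277 circRNAs (56.6%) were above 0 in 1 library, against 54.3% of circRNAs of other hosts. A further 60 (12.3%) were above 0 in all 5 libraries, against 11.7% elsewhere. The median level was 8.25 SRPBM in both sets, about the worth of a single read averaged over libraries. Levels of at least 100 SRPBM were reached by 27 circRNAs (5.52%, against 4.87% elsewhere).

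The most abundant circRNA came from 4932414N04Rik, a protein coding gene on chromosome 2. It spans 8249 bases (chr2:68688280-68696528), and its levels were 1926 and 1740 SRPBM in control and 1798, 2515 and 1140 SRPBM in triptolide libraries. The triptolide libraries lay on both sides of the controls, with a log2 fold change of -0.08 ± 0.36 (SE). The host had 13 circRNAs, 6 of them with the same start, and this one held 83.9% of their summed level. Its neighbour 4933409G03Rik, the next gene on the same chromosome, gave another of the top 4. That one spans 4823 bases (chr2:68588789-68593611), at 1354 and 1010 SRPBM in control and 1148, 1293 and 1175 SRPBM in triptolide libraries. Its groups overlapped too (log2 fold change 0.04 ± 0.26). Both genes lie between Stk39, which codes for a kinase of ion cotransporters, and Cers6, which codes for a ceramide synthase.

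Promoter windows of 250 bases before the gene start were read for hosts in the RefSeq promoter table (GRCm38.p6), which holds 146 of the 206 hosts in 167 windows. Windows of the hosts of these abundant circRNAs are shown, together with those of D430042O09Rik and 4930554G24Rik, which hold motifs known from male germ cells. As deposited, a circRNA of 4932414N04Rik (chr2:68657414-68696528) starts before the window of that gene and runs across it. That window may therefore not lie upstream of all transcripts of the gene. Capitals mark a motif match on either strand: TATAAA in the first and second window, the cyclic AMP response element TGACGTCA in the third, and TATAAA (reverse strand) followed by the RFX X-box (GTTNCC and GGNAAC with 2 bases between them) in the last. The windows are chr2:68657634-68657883 (plus strand), chr2:68582163-68582412 (plus strand), chr7:125707620-125707869 (plus strand) and chr11:14179042-14179291 (minus strand), each printed 5′ to 3′ along its gene.
4932414N04Rik: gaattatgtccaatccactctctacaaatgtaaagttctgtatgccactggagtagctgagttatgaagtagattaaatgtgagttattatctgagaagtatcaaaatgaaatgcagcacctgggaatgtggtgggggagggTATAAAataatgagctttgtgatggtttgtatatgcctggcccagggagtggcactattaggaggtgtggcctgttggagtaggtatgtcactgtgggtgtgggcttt
4933409G03Rik: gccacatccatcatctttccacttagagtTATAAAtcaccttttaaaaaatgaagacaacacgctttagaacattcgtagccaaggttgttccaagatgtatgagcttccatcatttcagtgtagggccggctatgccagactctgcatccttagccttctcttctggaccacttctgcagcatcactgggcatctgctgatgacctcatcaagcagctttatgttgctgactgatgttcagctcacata
D430042O09Rik: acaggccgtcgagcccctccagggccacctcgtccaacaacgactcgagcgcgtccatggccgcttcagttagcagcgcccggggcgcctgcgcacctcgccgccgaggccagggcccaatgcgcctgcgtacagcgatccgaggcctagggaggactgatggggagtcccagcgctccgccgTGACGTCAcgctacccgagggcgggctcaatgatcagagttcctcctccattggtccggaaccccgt
4930554G24Rik: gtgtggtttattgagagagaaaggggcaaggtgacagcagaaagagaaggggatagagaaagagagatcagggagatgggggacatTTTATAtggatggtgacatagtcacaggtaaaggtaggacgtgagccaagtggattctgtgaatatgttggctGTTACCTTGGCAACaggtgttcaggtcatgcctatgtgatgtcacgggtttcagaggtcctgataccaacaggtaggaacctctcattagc

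The cyclic AMP response element is the site of CREM, a transcription factor of spermatids. It was found in 2 of the 167 windows (1.2%), against 1.55% of 32851 windows of all genes. The X-box is the site of RFX factors, which act on genes of cilia and of the sperm flagellum. It was found in 3 windows (1.8%), those of 1700029J07Rik, 4930554G24Rik and 1700010I14Rik, against 0.37% of all windows. AACTGNC, a MYB site and thus a site of the meiotic factor MYBL1, was in 21 windows (12.57%, against 10.61%). TATAAA was in 16 windows (9.58%, against 12.37%). Both strands were searched, and a match is a description of the letters, not a site.

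Gm7133 on chromosome 1 was the host with the most circRNAs, 24, and 14 of them start at the same base (97182978). The gene lies beside Slco6c1, which codes for an organic anion transporter of the testis, and its next neighbour is Gm7135, which had 8 circRNAs. The main circRNA of Gm7133 spans 6391 bases (chr1:97182978-97189368). It was listed at 0 in control 1 and had 1823 SRPBM in control 2 and 2516, 2737 and 2011 SRPBM in triptolide libraries. The 3 triptolide libraries were above control 2, and control 1 was listed at 0 for a circRNA that had 220 reads in control 2. A circRNA with the same start that spans 86680 bases (chr1:97182978-97269657) was present in control 1, at 563 SRPBM. Its other levels were 729 SRPBM in control 2 and 526, 664 and 496 SRPBM in triptolide libraries, and the groups overlapped. A 35918-base circRNA of that start (chr1:97182978-97218895) had 193 and 323 SRPBM in control and 210, 283 and 313 SRPBM in triptolide libraries. Control 1 thus listed at 0 the most abundant circRNA of the shared start and not these longer ones.

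**Figure D2:**
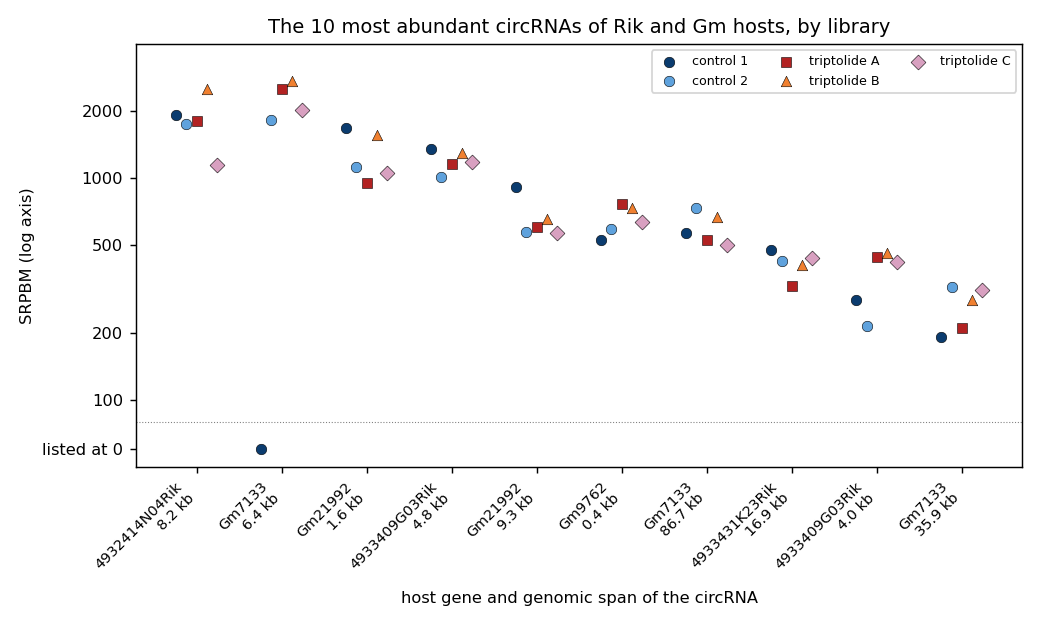
Level in SRPBM (log axis, with a separate line for values listed at 0) of the 10 most abundant circRNAs of Rik and Gm hosts in each of the 5 libraries, labelled with host and genomic span. Of the 50 values, 1 is listed at 0, that of the 6391-base Gm7133 circRNA in control 1.

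Gm21992 on chromosome 19 gave circRNAs that share their right end (4794009). RefSeq lists the gene as protein coding and as overlapping Rbm4, so reads of Rbm4 and of Gm21992 cannot be told apart here. The 1612-base circRNA (chr19:4792398-4794009) had 1680 and 1118 SRPBM in control and 947, 1559 and 1053 SRPBM in triptolide libraries. The 9286-base one (chr19:4784724-4794009) had 906 and 571 SRPBM in control and 602, 655 and 566 SRPBM in triptolide libraries. In both, control 1 was the highest library and the groups overlapped. The ratio of the longer to the shorter circRNA was 0.539 and 0.511 in the controls against 0.636, 0.42 and 0.538 after triptolide, also overlapping. Another circRNA of that end, 6649 bases long (chr19:4787361-4794009), had 184 and 149 SRPBM in control and 76, 124 and 78 SRPBM in triptolide libraries. Every triptolide library was below both controls for this one (log2 fold change -0.77 ± 0.40), and it did not pass the test described below.

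Outside the coding hosts, the most abundant circRNA was that of the pseudogene Gm9762 on chromosome 3. It spans 374 bases (chr3:78966402-78966775), one of the 3 shortest spans among circRNAs above 0 in at least 2 libraries. Its levels were 527 and 588 SRPBM in control and 765, 735 and 635 SRPBM in triptolide libraries. The 3 triptolide libraries were above both controls, and the log2 fold change was 0.34 ± 0.26, with a limma adjusted p = 0.728. Reads of a near-identical gene copy, if there is one, cannot be told from those of a pseudogene in this table. The leading long non-coding host was 4933431K23Rik on chromosome 8, which overlaps Ednra, the gene of an endothelin receptor. None of its 7 circRNAs lies wholly inside the gene as RefSeq gives it, so that their host assignment is uncertain. The main one, of 16944 bases, had 475 and 422 SRPBM in control and 325, 407 and 435 SRPBM in triptolide libraries. Summed over the 7, the host had 693 and 694 SRPBM in control and 429, 530 and 512 SRPBM in triptolide libraries, and every triptolide library was below both controls.

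Hosts differed in how they divided their signal. A single circRNA was listed for 129 of the 206 hosts. The 23 hosts with at least 5 had 220 circRNAs between them, and the mean per host was 2.37, against 3 for the 3290 other hosts of the table. After Gm7133, the hosts with the most circRNAs were 4930430A15Rik (now A26c3, 16 circRNAs), 1700007B14Rik (now Iqcm, 15), 2010111I01Rik (now Aopep, an aminopeptidase gene, 14), 2210408I21Rik (14) and 4932414N04Rik (13). Of the 16 circRNAs of 4930430A15Rik, 14 were above 0 in 1 library, while 4932438A13Rik had 8 circRNAs, 4 of them above 0 in all 5 libraries. Shared ends were common: 296 of the 489 circRNAs (60.5%) had the same start or end as another circRNA of the same host.

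Spans were close to those of the rest of the table. The genomic span, introns included, had a median of 14997 bases (95% confidence interval 13471 to 16903), against 16178 bases (15804 to 16636) for circRNAs of other hosts. It ran from 126 bases to 300501 bases. Spans under 1000 bases were held by 30 circRNAs (6.13%, against 4.33%), and spans over 100000 bases by 20 (4.09%, against 4.26%). By class of host, the median was 17135 bases (14883 to 19902) for coding hosts, 13241 bases (8395 to 15367) for long non-coding hosts and 965 bases (374 to 10962) for the 11 circRNAs of pseudogenes. The intervals of coding and long non-coding hosts overlap, and no test of the difference was run. Several circRNAs can share a host, so the intervals treat related circRNAs as separate.

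**Figure D3:**
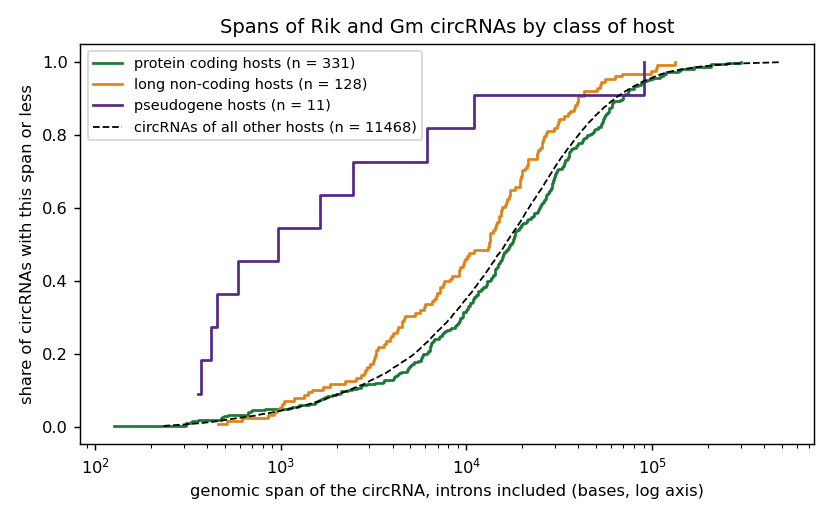
Cumulative share of circRNAs by genomic span in bases (log axis) for coding, long non-coding and pseudogene hosts among Rik and Gm genes, and for circRNAs of all other hosts (dashed). Around the median, the curve of long non-coding hosts (13241 bases) lies to the left of that of coding hosts (17135 bases). The coding curve starts further left, at 126 bases against 459 bases, and that of the 11 pseudogene circRNAs starts near 400 bases.

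The 3 longest circRNAs above 0 in at least 2 libraries came from 1700007B14Rik (167185 bases), 2210408I21Rik (141810 bases) and Gm7133 (119398 bases). That of 1700007B14Rik (chr8:75462609-75629793) had 70 and 91 SRPBM in control and 19, 97 and 95 SRPBM in triptolide libraries. The 2210408I21Rik one (chr13:77192554-77334363) had 167 and 58 SRPBM in control and 114, 97 and 34 SRPBM in triptolide libraries. The groups overlapped in both. The longest Gm7133 circRNA was above 0 in triptolide A (19 SRPBM) and triptolide C (34 SRPBM) alone. One of the same start that spans 119320 bases was above 0 in every library. Its ratio to the 86680-base one was 0.092 and 0.102 in the controls against 0.036, 0.026 and 0.034 after triptolide. For a 60633-base circRNA of that start the ratio was 0.155 and 0.112 against 0.181, 0.373 and 0.175. These ratios were chosen after their values were seen and were not tested. The shortest were those of 9430020K01Rik, now Jcad (331 bases, 26 SRPBM in control 1 and in triptolide B and 0 elsewhere), and of the pseudogene Gm5893 (357 bases). Gm5893 had 43 SRPBM in control 1, 28 in triptolide A and 35 in triptolide B, and was listed at 0 in the other libraries.

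Whether triptolide changed circRNA levels was tested with limma over all circRNAs above 0 in at least 2 libraries, on log2(SRPBM + 16). Of the 489 circRNAs, 212 passed that filter. None of the 212 passed an adjusted p of 0.05, against 0 of 5457 over the whole table (0%). The smallest adjusted p of a Rik or Gm circRNA was 0.676, and edgeR on the recovered reads also called 0. At an unadjusted p under 0.05 in limma, 16 of the 212 (7.55%) were found, against 360 of 5457 (6.6%), and edgeR gave 129 of 5457. Of the 16, 4 were higher (background 1.8%, 98 of 5457) and 12 lower in triptolide libraries (background 4.8%, 262 of 5457). The median log2 fold change was -0.17 over the 212 and -0.06 over all circRNAs tested. Triptolide libraries lay wholly above the controls for 13 of the 212 (background 6.78%) and wholly below for 26 (background 10.5%).

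The filter bears on these counts, since a circRNA listed at 0 in 1 group passed only through the other. Of the 212, 9 (4.25%, against 3.79% of all tested) were listed at 0 in all 3 triptolide libraries, and all 9 are among the 12 lower ones. A further 21 (9.91%, against 12.41%) were listed at 0 in both controls. Over the 60 circRNAs above 0 in all 5 libraries the median log2 fold change was -0.08, against -0.09 for all 1404 such circRNAs. When limma was run on those 1404 circRNAs alone, none of the 60 passed, against 1 of 1404 (0.0712%). Among the 60, triptolide libraries lay wholly above the controls for 7 (background 8.33%) and wholly below for 10 (background 13.5%).

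**Figure D4:**
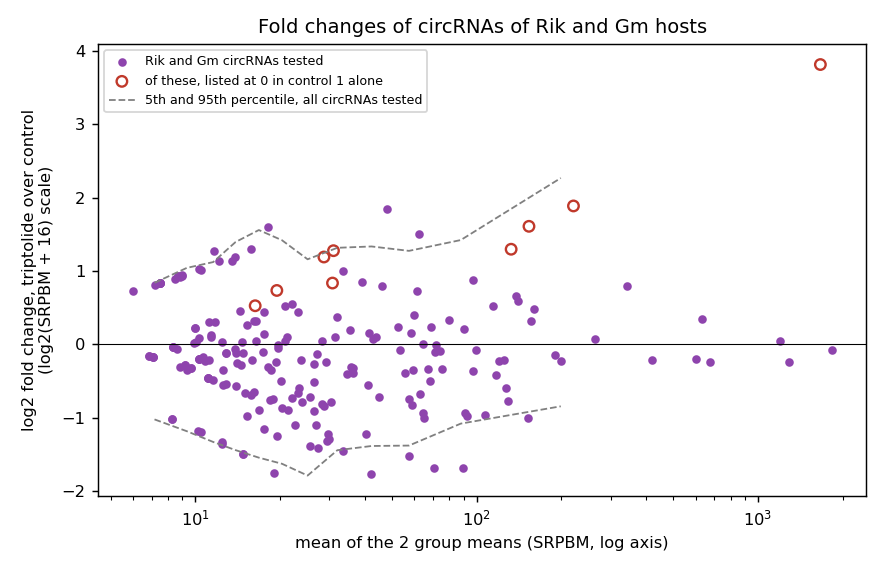
Log2 fold change of triptolide over control (log2(SRPBM + 16) scale) against the mean level in SRPBM (log axis) for the 212 Rik and Gm circRNAs tested. Red rings mark the 9 listed at 0 in control 1 alone, dashed lines the 5th and 95th percentile of all 5457 circRNAs in bins of level, and the point farthest up is the 6391-base Gm7133 circRNA at 3.82.

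Among circRNAs above 0 in every library, that of 1700024P16Rik had the largest increase without overlap. The gene is now Fyb2, which codes for an adaptor protein, and the circRNA spans 5783 bases (chr4:104945104-104950886). Its levels were 35 and 16 SRPBM in control and 105, 97 and 95 SRPBM in triptolide libraries. The triptolide libraries lay close together, at 99.0 ± 5.29 SRPBM (SD, n = 3), above controls at 25.5 ± 13.4 SRPBM (SD, n = 2). The log2 fold change was 1.51 ± 0.48, with a limma adjusted p = 0.676, so that the difference did not pass the test. The controls rest on 4 reads and 2 reads.

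The 4036-base circRNA of 4933409G03Rik (chr2:68588789-68592824) also separated the groups. It had 281 and 215 SRPBM in control and 440, 460 and 418 SRPBM in triptolide libraries, a log2 fold change of 0.80 ± 0.29 with a limma adjusted p = 0.676. It shares its start with the 4823-base circRNA of the same gene described above, which ends further downstream and did not separate the groups. The ratio of the shorter to the longer was 0.208 and 0.213 in the controls against 0.383, 0.356 and 0.356 after triptolide. This ratio was looked at after its values were known and was not tested. Other such ratios, within Gm7133, Gm21992 and 4932414N04Rik, were looked at too. Some of those also separated the groups, upward as for the 60633-base Gm7133 circRNA or downward as for the 119320-base one (both above). Another circRNA of 4933409G03Rik starts 2 bases from the 4823-base one and has the same end. It had 26 and 0 SRPBM in control and 57, 132 and 60 SRPBM in triptolide libraries. One of 17755 bases (chr2:68588789-68606543), was listed at 0 in control 1 and had 248 SRPBM in control 2 and 172, 203 and 174 SRPBM in triptolide libraries. Without control 1 the log2 fold change of that one turned to -0.41.

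The other increases without overlap that were largest rested on libraries at 0. 4930519G04Rik was listed at 0 in both controls and had 66, 17 and 26 SRPBM in triptolide libraries. A 5224-base Gm7133 circRNA was listed at 0 in both controls and had 19, 17 and 34 SRPBM in triptolide libraries. The circRNA of 1700001L05Rik, a long non-coding host, had 0 and 24 SRPBM in control and 28, 35 and 87 SRPBM in triptolide libraries, with a log2 fold change of 1.28 ± 0.74 with all libraries and 0.62 ± 0.88 without control 1. These values correspond to a few reads each.

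Among the decreases without overlap, the only one of the 6 largest above 0 in every library came from 2210408I21Rik. This 15822-base circRNA (chr13:77254123-77269944) had 175 and 107 SRPBM in control and 19, 79 and 17 SRPBM in triptolide libraries. Both controls were above all triptolide libraries, with a log2 fold change of -1.68 ± 0.62 and a limma adjusted p = 0.676. Summed over its 14 circRNAs, the host had 620 and 246 SRPBM in control and 237, 254 and 215 SRPBM in triptolide libraries, so that triptolide B lay above control 2. Gm2396, a coding host, had 131 and 91 SRPBM in control and 38, 0 and 52 SRPBM in triptolide libraries for its 39879-base circRNA. 4930503L19Rik had 96 and 82 SRPBM in control and 0, 44 and 34 SRPBM in triptolide libraries for a 14251-base circRNA. In both, 1 triptolide library was listed at 0 and the others were below the controls. Listed at 0 in all 3 triptolide libraries were a 695-base circRNA of 9530077C05Rik and a 29624-base circRNA of Gm7133, each at 35 and 24 SRPBM in control, and a circRNA of 0610010F05Rik at 35 and 41 SRPBM in control.

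The last of these lies 4 bases from another circRNA. Both start at base 23606614 of chromosome 11, and they end at 23622525 and 23622529. The second had 0 SRPBM in control 1, 331 in control 2 and 162, 398 and 269 in triptolide libraries, so that control 2 lay within the range of the triptolide libraries. In all, 12 of the 489 circRNAs were in 7 pairs of circRNAs whose starts and ends together differed by at most 20 bases, and in 5 pairs the difference was under 5 bases. The 6391-base circRNA of Gm7133 had such a partner 2 bases shorter, listed at 17 SRPBM in triptolide B and at 0 elsewhere. A Gm29427 circRNA had a partner 3 bases away that the table gives to C4bp-ps1. Gm29427 had 123 and 132 SRPBM in control and 57, 53 and 60 SRPBM in triptolide libraries, and its partner 131 and 157 against 95, 124 and 95 SRPBM. Every triptolide library was below both controls for each of the pair.

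The 9 circRNAs listed at 0 in control 1 alone came from 9 hosts. The 4 of at least 50 SRPBM in the other libraries were the Gm7133, 0610010F05Rik and 4933409G03Rik circRNAs given above and a 7251-base circRNA of 2010111I01Rik. That one (chr13:63061035-63068285) had 240 SRPBM in control 2 and 191, 141 and 104 SRPBM in triptolide libraries, all below control 2. Gm7854 had 41 SRPBM in control 2 and 28, 26 and 69 SRPBM in triptolide libraries. The remaining 4 were those of 1700001L05Rik (above), Gm1661 (now Armh1), Gm8871 and Gm7068 (Catspere1), each with 24 SRPBM in control 2. Fitted with all libraries, the log2 fold changes of these 9 circRNAs ran from 0.53 to 3.82, all with limma adjusted p of at least 0.676. For the Gm7133 circRNA the value was 3.82 ± 1.61 with all libraries and 0.39 ± 0.38 without control 1. Without control 1 the log2 fold changes were -0.33 for 0610010F05Rik, -0.70 for 2010111I01Rik, -0.079 for Gm7854, 0.62 for 1700001L05Rik, 0.53 for Gm1661, 0.075 for Gm8871 and -0.13 for Gm7068. Without control 2, limma called 130 of 4560 circRNAs (2.85%), 122 of them higher in triptolide, and 4 of 179 Rik or Gm circRNAs (2.23%). Control 1 is then the whole control group, and the 4 are those of at least 50 SRPBM just named, which were picked for being at 0 in it, so nothing is read from their calls. Without control 1, limma called 2 of 4749 circRNAs (0.0421%) and 0 of the 173 Rik or Gm circRNAs tested.

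Summed per library, Rik and Gm circRNAs had 18062 and 17525 SRPBM in control and 16702, 21887 and 16087 SRPBM in triptolide libraries. The groups overlapped, with a difference of 432 SRPBM (two-sided exact permutation p = 1). Without the 9 circRNAs at 0 in control 1 alone the difference was -1389 SRPBM (exact permutation p = 0.6). Their share of all circRNA SRPBM was 5.17% and 4.88% in the controls and 5.36%, 5.62% and 5.27% in triptolide libraries. All 3 triptolide libraries were above both controls, at 5.41% ± 0.182 (SD, n = 3) against 5.02% ± 0.204 (SD, n = 2). The exact permutation p was 0.1, the smallest that 2 against 3 libraries allow, and 0.3 after Benjamini-Hochberg adjustment over 3 such values. Without the 9 circRNAs at 0 in control 1 alone, the difference fell from 0.388 to 0.184 percentage points (exact permutation p = 0.6). The summed germ cell marker circRNAs given above differed between libraries as well, and their part in this share was not tested.

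The number of Rik and Gm circRNAs above 0 was 204 and 211 in the controls against 167, 209 and 186 after triptolide (exact permutation p = 0.3, adjusted 0.45). Triptolide A, with 167, was also the library with the fewest junction reads. By class of host, coding hosts had 14828 and 14239 SRPBM in control and 13928, 18529 and 13096 SRPBM in triptolide libraries, and these overlapped. Long non-coding hosts had 2185 and 2002 SRPBM in control and 1448, 1866 and 2046 SRPBM in triptolide libraries, with triptolide C between the controls.

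The deposited table of long non-coding RNAs (lncRNAs) gave counts of long RNA at loci that carry the ID of some of these hosts. Many such loci are antisense, so their counts need not be those of the host's own linear transcript. In all, 92 hosts had 116 loci with their ID, of which 78 had enough counts to be tested. Counts per locus were tested with edgeR, and 7 of the 78 passed an adjusted p of 0.05 (8.97%, against 501 of 6888 loci in all, 7.27%). Of these, 5 rose (6.41%, background 5.01%) and 2 fell (2.56%, background 2.26%). The median log2 fold change was 0.02 over the 78 and 0.00 over all loci. Levels are in CPM, counts scaled to the library's total in the lncRNA table. Its triptolide columns are called D, E and 3, which cannot be matched to the letters of the circRNA table.

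The antisense locus at 9530077C05Rik rose most. It had 24.9 and 18.7 CPM in the controls against 112, 70.9 and 123 CPM after triptolide. All triptolide libraries were above both controls, with a log2 fold change of 2.23 ± 0.32 and an edgeR adjusted p = 3.05e-05. Of the sense gene, 2 circRNAs, the 695-base one given above among them, were listed at 0 in all triptolide libraries. The 695-base one rests on 4 and 3 reads in the controls. All 3 circRNAs of the gene together had 52 and 48 SRPBM in control and 0, 0 and 17 SRPBM in triptolide libraries. As deposited, they lie within chr9:22424113-22435400, outside the antisense locus (chr9:22442977-22447225). No source used here names the counting strand, so these antisense reads may include reads of the partner gene. The intergenic locus of Gm20557 had 50.6 and 80.2 CPM in the controls against 178, 132 and 174 CPM after triptolide. It rose by 1.29 ± 0.25 on the log2 scale (edgeR adjusted p = 0.00147). Both of these calls held with each library left out in turn.

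At 1110051M20Rik, 1700006J14Rik and Gm21847, 1 antisense locus each rose less. That at 1110051M20Rik had 140 and 147 CPM in the controls against 321, 199 and 369 CPM after triptolide (log2 fold change 1.05 ± 0.23, edgeR adjusted p = 0.00443). The call was lost without triptolide 3 (adjusted p = 0.0513). One at 1700006J14Rik had 348 and 370 CPM in the controls against 663, 453 and 755 CPM after triptolide (log2 fold change 0.80 ± 0.21, edgeR adjusted p = 0.0144). A more abundant antisense locus of the same host was not called, at 4256 and 4175 CPM in the controls against 4144, 3999 and 3989 CPM after triptolide (log2 fold change -0.06 ± 0.16, edgeR adjusted p = 0.875). One locus at Gm21847 had 66.3 and 82.2 CPM in the controls against 132, 107 and 153 CPM after triptolide (log2 fold change 0.81 ± 0.24, edgeR adjusted p = 0.0358). The other Gm21847 loci tested were not called. The most abundant of them had 148 and 182 CPM in the controls against 225, 168 and 230 CPM after triptolide (edgeR adjusted p = 0.377), and the groups overlapped. For the called locus of both 1700006J14Rik and Gm21847 the call was lost without control 1, without triptolide D or without triptolide 3. The edgeR adjusted p then ran from 0.0655 to 0.111 for the 1700006J14Rik locus and from 0.122 to 0.29 for the Gm21847 locus.

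The loci of 4921515E04Rik and 1110019D14Rik fell. 4921515E04Rik had 119 and 108 CPM in the controls against 52.8, 75.6 and 45.7 CPM after triptolide (log2 fold change -0.97 ± 0.25, edgeR adjusted p = 0.0149). 1110019D14Rik had 76.7 and 74.7 CPM in the controls against 41.2, 40.6 and 24.3 CPM after triptolide (log2 fold change -1.10 ± 0.29, edgeR adjusted p = 0.0169). Triptolide libraries were below both controls in each. Without control 1 or without triptolide 3 both calls were lost, and that of 4921515E04Rik was also lost without triptolide D. The edgeR adjusted p then ran from 0.0689 to 0.0817 for 4921515E04Rik and from 0.0535 to 0.0816 for 1110019D14Rik. Each of these hosts had 1 circRNA, above 0 in 1 library, as were 56.6% of Rik and Gm circRNAs. That of 4921515E04Rik had 26 SRPBM in triptolide C alone, and that of 1110019D14Rik 28 SRPBM in triptolide A alone. The most abundant of these loci was the intergenic one of 1700001L05Rik, which did not pass the test. It had 13117 and 11768 CPM in the controls against 9693, 9118 and 10250.1 CPM after triptolide, with every triptolide library below both controls (log2 fold change -0.36 ± 0.15, edgeR adjusted p = 0.147).

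**Figure D5:**
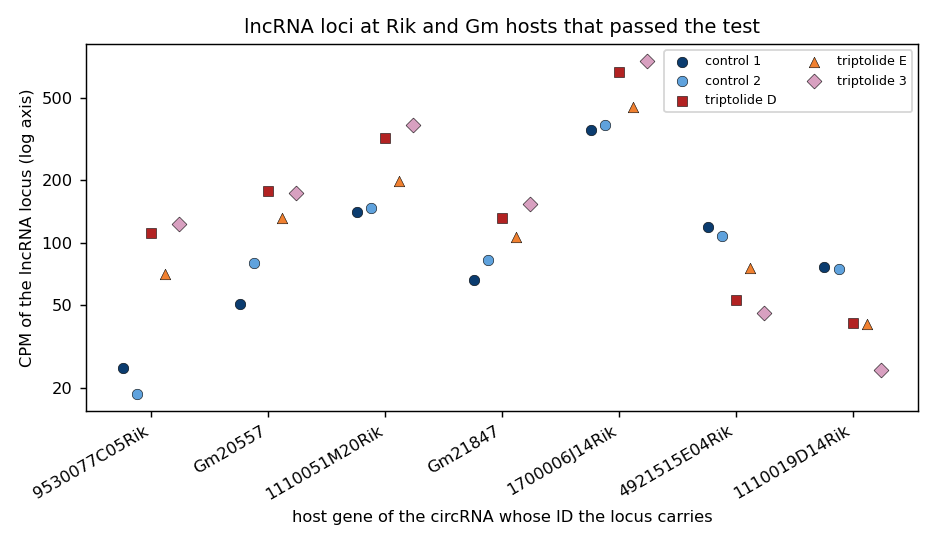
Level in CPM (log axis) of the 7 lncRNA loci at Rik and Gm circRNA hosts that passed the edgeR test, in each of the 5 libraries of the lncRNA table. The first 5 loci are higher and the last 2 lower in every triptolide library than in both controls.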

How the data were processed

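RNA of mouse testis was profiled in 2 control and 3 triptolide libraries. HISAT2 2.0.1, HTSeq 0.6.1, bedtools 2.17.0 and DESeq are named, without a role, in the submitters' processing notes. Those notes name the human build hg19, while the deposited IDs and host positions are mouse, so coordinates of circRNAs are printed as deposited. SRPBM is a score that the authors deposited for each circRNA. Each value equals a whole number of reads times the worth of 1 read in its library, cut to a whole number (100% of values). The lncRNA table holds expected counts per assembled transcript, per the file headers. It was summed per locus, and CPM is the count scaled to the table's total (947298 to 1071012 counts per library). The 5 FPKM columns beside the counts and the mRNA table were not used here.

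limma 3.58.1 with a trend was run on log2(SRPBM + 16) for circRNAs above 0 in at least 2 libraries, which understates the change of low circRNAs. edgeR 4.0.16 was run on the rounded expected counts (quasi-likelihood F test, TMM, filterByExpr), in R 4.3.3. Both fits were also run on simulated data. The outcome of those runs is not reported here, so nothing is read from them about the fits to these libraries. p-values were adjusted by Benjamini-Hochberg over each whole table, with a threshold of 0.05. Sums were compared by exact permutation over 10 assignments. A difference between libraries in whole reads is limited by counting error. The confidence intervals cover the spread of spans only. Values after ± are the SE of the fit for log2 fold changes, and the SD between libraries where marked SD.

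The members and lists were chosen with earlier results of these data known. Named circRNAs were the 10 most abundant, the 6 largest increases and 6 largest decreases without overlap, the 6 most abundant at 0 in control 1 alone, the 3 longest and 3 shortest, the hosts with the most circRNAs, and lncRNA loci past the threshold. Other circRNAs and hosts named (renamed hosts, those inside another gene, near pairs, sums per host, promoters) were chosen after their values were seen. Alternatives were other pseudocounts, filters, scalings and tools, and leaving out each library.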

Additional observations from a re-analysis of the deposited data

How the results depend on the processing

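No circRNA passed the test in limma with a pseudocount of 1 or 50, with SRPBM scaled to the circRNA total, or with edgeR on recovered reads. Without a filter 36 did, 1 of them of a Rik or Gm host, the 6391-base Gm7133 circRNA (log2 fold change 3.82, limma adjusted p = 3.77e-30). Its controls were listed at 0 and 1823 SRPBM. The SE in that fit was 0.31, against 1.61 with the filter (limma adjusted p = 0.676), so nothing is read from that call. That circRNA had a log2 fold change of 5.81 with a pseudocount of 1, 3.002 with 50 and 1.41 by edgeR. Among circRNAs above 0 in all 5 libraries 1 passed, none of Rik or Gm hosts. Leaving out each library gave 0 to 130 calls. For lncRNA loci, 501 calls became 0 with single transcripts (13534 tested, against 6888 loci), and 269 to 588 with each library left out. Why no single transcript was called was not tested. DESeq2 called 349 loci, and that at Gm21847 was lost (adjusted p = 0.0761).

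The difference in summed SRPBM was 432, turned to -1389 without the circRNAs at 0 in control 1 alone (an alternative chosen after seeing the data), and ran from -1399 (without triptolide B) to 1501 (without triptolide C). The share and the number above 0 kept their direction throughout, at 0.244 to 0.532 percentage points and -31 to -10 circRNAs with each library left out. The count at 0 in control 1 alone went from 9 to 4 with at least 50 SRPBM elsewhere, and the median span from 14997 to 10729 bases when each host counted once.

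Of the named circRNAs, those whose log2 fold change turned sign had not passed the test with all libraries. Scaling to the circRNA total gave 0.0032 for the 8249-base 4932414N04Rik circRNA, and edgeR gave -0.035 for Gm5893. With each library left out, 4 of the 6 most abundant circRNAs at 0 in control 1 alone turned without control 1 and were highest without control 2. They ran from -0.33 to 4.11 for 0610010F05Rik, from -0.41 to 3.63 for 4933409G03Rik (17755 bases), from -0.70 to 3.30 for 2010111I01Rik and from -0.079 to 1.75 for Gm7854. Others that turned ran from -0.35 to 0.21 for 4932414N04Rik, from -0.53 to 0.051 and from -0.57 to 0.085 for Gm21992 (1612 and 9286 bases), from -0.17 to 0.25 for 4933409G03Rik (4823 bases) and from -0.27 to 0.43 for Gm7133 (35918 bases). The longest and shortest ran from -1.02 to 0.29 for 2210408I21Rik, from -0.62 to 0.22 for 1700007B14Rik and from -0.84 to 1.04 for Gm5893. Apart from the left-out libraries, the cause was not tested. No paired analysis was possible because the triptolide columns carry no replicate numbers of their own.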

Other observations

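Sums per host gave further values outside the comparisons above, chosen after they were seen and not tested. The 8 circRNAs of 4932438A13Rik, the gene of a bridge-like lipid transfer protein, had 701 and 437 SRPBM in control and 295, 422 and 302 SRPBM in triptolide libraries, all below both controls. The 15 circRNAs of 1700007B14Rik (Iqcm) had 657 and 509 SRPBM in control and 275, 519 and 337 SRPBM in triptolide libraries, with triptolide B between the controls. In D430042O09Rik, whose promoter window is printed above, the 12 circRNAs had 347 and 239 SRPBM in control and 437, 448 and 320 SRPBM in triptolide libraries, with triptolide C between the controls. The 12 circRNAs of 4921506M07Rik, now Ttc6, had 464 and 264 SRPBM in control and 438, 342 and 319 SRPBM in triptolide libraries, inside the range of the controls. The 3 circRNAs of Gm15800, now Hectd4, a ubiquitin ligase gene, had 35 and 40 SRPBM in control and were listed at 0 in all triptolide libraries. Each of the 3 was above 0 in 1 library only, as were 56.6% of Rik and Gm circRNAs, so these sums rest on a few reads. The single circRNA of Gm13157, now the zinc finger gene Zfp984, spans 51064 bases and had 61 and 140 SRPBM in control and 133, 301 and 95 SRPBM in triptolide libraries, with triptolide B the highest.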
